A study of Homo sapiens with 5 samples.

Results

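Small nucleolar RNAs and the genes that host them were described in 22Rv1 cells, an established human prostate carcinoma line. Members were every gene symbol that began with SNORA, SNORD, SCARNA or SNHG, and GAS5, ZFAS1 and RNU86. The rule took 461 of the 26506 symbols that both deposited tables share, by name alone, but was chosen with earlier results of these data known. Of these, 23 are host genes and 438 are small RNAs, namely 280 SNORD, 130 SNORA, 27 SCARNA and RNU86. The small RNAs are given apart from the hosts, because they are short and drew few reads.

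Cells in RPMI-1640 medium with 10% serum were given lentivirus, and total RNA was taken from them 72 hours later. Cells received ESM1, with Vector-1 as their control, or ESM1-NLS or ESM1-NES, with Vector-2 as the control of both. ESM1 encodes a secreted proteoglycan, and NLS and NES, not spelt out in the labels, usually abbreviate nuclear localisation signal and nuclear export signal. The virus' promoter, the clonality of the cells and the selection of RNA for the library are not given in the sources used here, and each group is 1 library.

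Small nucleolar RNAs guide the chemical modification of ribosomal RNA. Box C/D RNAs (SNORD) direct ribose methylation with fibrillarin, box H/ACA RNAs (SNORA) direct pseudouridylation with dyskerin, and the small Cajal body RNAs (SCARNA) act on spliceosomal RNAs. Most are cut from introns of host genes and carry no poly(A) tail. Many hosts are non-coding SNHG genes with the oligopyrimidine start of ribosomal protein genes, and their spliced RNAs are often removed by nonsense-mediated decay.

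Depth was 19975113 reads in ESM1-NLS, 18447256 reads in ESM1-NES and 24322216 reads in Vector-2, and about 13760000 in ESM1 and 15180000 in Vector-1, where it was estimated from the smallest steps between values. The 9 luminal prostate markers, such as KLK3 and KRT8, all reached 1 FPKM in at least 1 library and summed to between 1159 and 1356 FPKM. The 3 basal markers summed to at most 0.21 FPKM and the 3 endothelial markers to at most 0.07 FPKM. Of 3 leukocyte markers CD68 alone, and of 3 fibroblast markers COL1A1 alone, reached 1 FPKM. In bulk RNA, fewer cells of a type and less RNA per cell cannot be told apart. Since each group is a single library, there is no spread between replicates to set a difference against and no p-value was computed. A range in parentheses after a ratio is its exact 95% interval by the Clopper-Pearson method, which covers counting error only and rests on estimated reads for ESM1 and Vector-1.

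Sequences are shown first for the small RNAs on which the results turn. They comprise the 3 with 10 or more reads in a library (SCARNA12, SNORD17 and SNORD22) and both small RNAs of SNHG25. Sequences and places are from GENCODE release 29 on GRCh38, 5′ to 3′, not from the hg19 build that the submitters' processing notes name. SCARNA12 lies at chr12:6967337-6967606 on the minus strand inside PHB2. SNORD17 lies at chr20:17962710-17962946 on the minus strand inside SNX5, within the span of OVOL2 on the same strand. SNORD22 lies at chr11:62852910-62853035 on the minus strand within an annotated exon of SNHG1. SNORA50C at chr17:64146339-64146471 and SNORD104 at chr17:64146083-64146152 both lie on the plus strand inside SNHG25, SNORA50C within an annotated exon. Capitals mark TGATG, the core of box C, in the first 30 bases and CTGA, box D, in the last 30 bases, and for SNORA50C the ACA box near the 3′ end.
SCARNA12: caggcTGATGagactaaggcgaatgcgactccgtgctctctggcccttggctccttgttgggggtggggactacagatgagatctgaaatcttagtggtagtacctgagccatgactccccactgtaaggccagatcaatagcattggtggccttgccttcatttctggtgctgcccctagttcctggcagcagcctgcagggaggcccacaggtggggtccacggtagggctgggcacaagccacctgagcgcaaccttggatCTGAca
SNORD17: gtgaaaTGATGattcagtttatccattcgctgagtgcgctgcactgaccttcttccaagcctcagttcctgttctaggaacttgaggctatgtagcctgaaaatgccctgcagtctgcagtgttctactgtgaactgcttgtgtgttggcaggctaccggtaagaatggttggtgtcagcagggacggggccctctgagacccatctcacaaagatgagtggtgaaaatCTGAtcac
SNORD22: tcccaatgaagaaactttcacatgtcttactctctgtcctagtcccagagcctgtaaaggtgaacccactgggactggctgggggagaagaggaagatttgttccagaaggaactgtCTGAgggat
SNORA50C: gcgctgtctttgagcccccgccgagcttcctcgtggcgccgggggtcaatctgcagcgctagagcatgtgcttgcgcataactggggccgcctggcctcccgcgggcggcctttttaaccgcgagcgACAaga
SNORD104: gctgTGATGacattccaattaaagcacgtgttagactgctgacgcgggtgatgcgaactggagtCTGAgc
SNORD22 has no TGATG in that window. Among the 245 SNORD with a sequence, searched on the RNA's own strand, 89.4% had TGATG in the first 30 bases and 96.3% CTGA in the last 30. Of 108 SNORA, 89.8% had ACA in the last 10 bases. SCARNA12, with 270 bases, and SNORD17, with 237, are longer than the median SNORD of 81 bases. The 17 SNORD with a sequence that were above 0 in at least 1 library had a median length of 92 bases, and the 228 at 0 in all had 81.

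The host genes were read in depth. With a mean over the 5 libraries of 1 FPKM or more, 20 of the 23 were measured. SNHG22 was at most 0.05 FPKM, and SNHG18 and SNHG24 were listed at 0 in every library. The 20 hosts drew 0.0977% of reads in ESM1, 0.0933% in Vector-1, 0.141% in ESM1-NLS and 0.166% in ESM1-NES, against 0.154% in Vector-2. GAS5, SNHG5 and SNHG8 headed the order of levels in all 5 libraries and made up between 63.3% and 66.1% of the summed FPKM of the hosts.

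GAS5, named for its accumulation in growth-arrested cells, spans chr1:173863900-173868882 on the minus strand and encloses 11 small RNAs. Its level was 422 FPKM in ESM1, against 407 FPKM in Vector-1, and 675 FPKM in ESM1-NLS, 846 FPKM in ESM1-NES and 794 FPKM in Vector-2. SNHG5, which hosts SNORD50A and SNORD50B, stood at 308 FPKM in ESM1, against 304 FPKM in Vector-1, and at 394, 525 and 462 FPKM in ESM1-NLS, ESM1-NES and Vector-2. SNHG8, the host of SNORA24, stood at 346 FPKM in ESM1, against 304 FPKM in Vector-1, and at 394, 468 and 413 FPKM in ESM1-NLS, ESM1-NES and Vector-2. In each of these 3 genes ESM1-NES was the highest library, ESM1-NLS lay below Vector-2, and Vector-1 was the lowest. The order of SNHG5 and SNHG8 differed between libraries: SNHG8 was the higher in ESM1, and in ESM1-NLS they were about equal.

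SNHG1, the host of SNORD22 and 7 other box C/D RNAs, stood at 112 FPKM in ESM1, 114 FPKM in Vector-1, 227 FPKM in ESM1-NLS, 248 FPKM in ESM1-NES and 240.7 FPKM in Vector-2. SNHG6, the host of SNORD87, stood at 158, 155, 166, 178 and 179.8 FPKM in the same libraries. ZFAS1, which encloses SNORD12, SNORD12B and SNORD12C and is antisense to ZNFX1, stood at 85.0 FPKM in ESM1, 89.5 FPKM in Vector-1, 133 FPKM in ESM1-NLS, 154 FPKM in ESM1-NES and 155 FPKM in Vector-2. SNHG6 varied least among these 3 genes, and in each of them ESM1 and Vector-1 lay below the libraries of the other deposited table. Since no source used here says whether counting used strand, reads of ZFAS1 and of ZNFX1 may not be separable. The measured hosts SNHG7, SNHG12, SNHG10 and SNHG21 are also annotated as antisense, and the same limit holds for them.

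SNHG7 stood at 59.1 FPKM in ESM1, against 48.4 FPKM in Vector-1, and at 92.9 FPKM in ESM1-NLS, 103 FPKM in ESM1-NES and 86.5 FPKM in Vector-2. SNHG12, which encloses SNORA16A, SNORA44, SNORA61 and SNORD99, stood at 15.1 FPKM in ESM1, against 11.2 FPKM in Vector-1, and at 29.2 FPKM in ESM1-NLS, 27.2 FPKM in ESM1-NES and 25.0 FPKM in Vector-2. SNHG19, the host of SNORD60, stood at 43.5 FPKM in ESM1, against 32.5 FPKM in Vector-1, and at 38.1 FPKM in ESM1-NLS, 51.5 FPKM in ESM1-NES and 41.2 FPKM in Vector-2. All 3 were higher in ESM1 than in Vector-1, and all 3 were higher in ESM1-NES than in Vector-2. SNHG3 stood at 11.2 FPKM in ESM1, against 9.16 FPKM in Vector-1, and at 16.3 FPKM in ESM1-NLS, 20.3 FPKM in ESM1-NES and 20.6 FPKM in Vector-2.

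The other 10 measured hosts are given by their range. SNHG15 lay between 39.6 and 59.6 FPKM over the 5 libraries, SNHG16 between 29.4 and 37.8 FPKM, SNHG9 between 14.8 and 27.3 FPKM, and SNHG17 between 8.34 and 12.1 FPKM. SNHG11 lay between 5.62 and 9.75 FPKM, SNHG10 between 5.06 and 8.04 FPKM, SNHG25 between 3.90 and 8.58 FPKM, SNHG4 between 3.57 and 4.48 FPKM, SNHG20 between 3.63 and 4.60 FPKM, and SNHG21 between 1.55 and 2.79 FPKM. SNHG25 rested on between 4 and 11 reads per library, against at least 14 for every other measured host. Expected counts of SNHG7, SNHG16, SNHG3, SNHG10, SNHG4 and SNHG20 were not whole numbers in at least 1 library, as where reads are shared out among overlapping or similar genes, so their values are less certain.

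**Figure D1:**
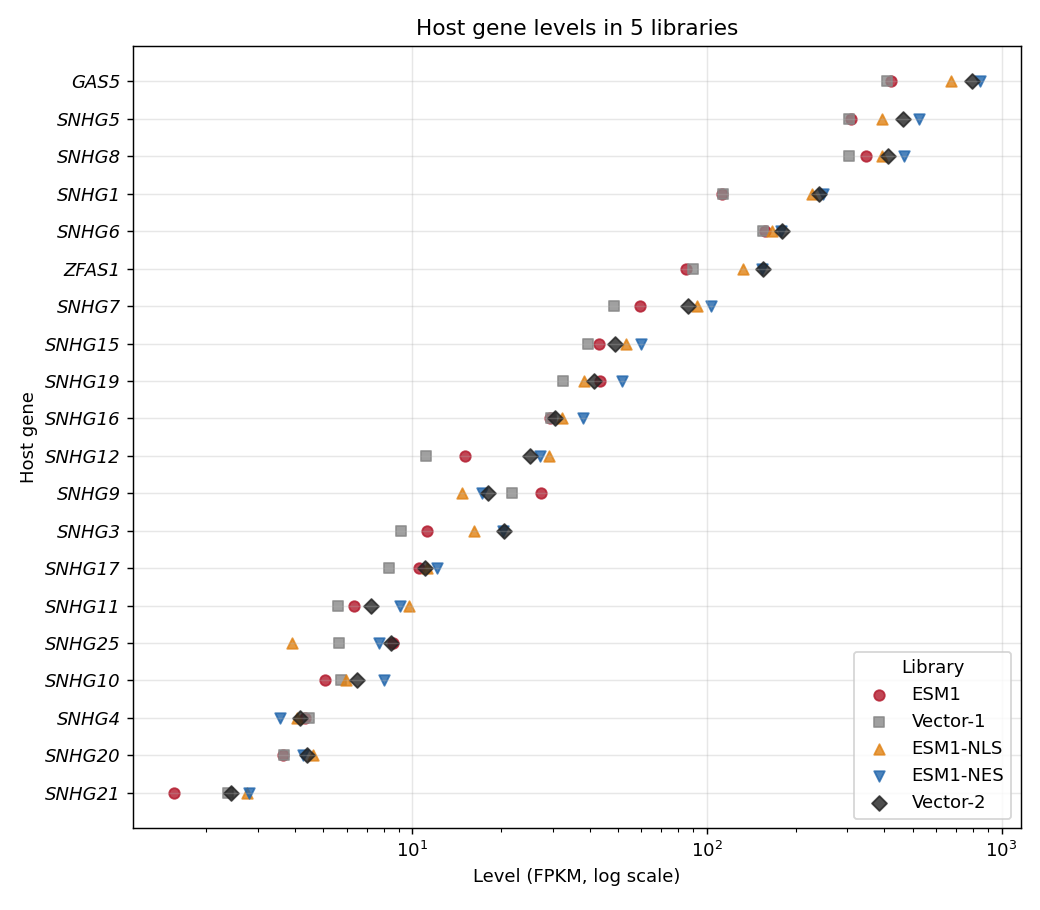
Level of each of the 20 measured host genes in FPKM (log scale) in the libraries ESM1, Vector-1, ESM1-NLS, ESM1-NES and Vector-2, 1 point per library. GAS5 lies between 407 and 846 FPKM and SNHG21 between 1.55 and 2.79 FPKM, and for most genes the points of ESM1 and Vector-1 lie to the left of the other 3.

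The starts of 5 hosts are printed because each held both motifs searched. From RefSeq on GRCh38.p14, 16 of the hosts had a promoter entry. CTTT, which stands for a pyrimidine start in these letters, was sought from 10 bases before to 15 bases after the annotated start, and TATAA from 40 to 15 bases before it, both on the gene's strand and in windows that do not overlap. CTTT was found in 7 of the 16 hosts and in 10.7% of all 35116 promoters in the table. TATAA was found in 6 of 16 and in 3.91% of all, and both in 5 of 16 and in 0.473% of all. Each window runs from 40 bases before the start through the first 20 bases, with both motifs in capitals. SNHG12 is at chr1:28581854-28581913 (minus strand), SNHG19 at chr16:2155339-2155398 (minus), SNHG5 at chr6:85678714-85678773 (minus), SNHG8 at chr4:118278722-118278781 (plus) and ZFAS1 at chr20:49278602-49278661 (plus).
SNHG12: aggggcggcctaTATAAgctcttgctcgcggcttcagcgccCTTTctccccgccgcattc
SNHG19: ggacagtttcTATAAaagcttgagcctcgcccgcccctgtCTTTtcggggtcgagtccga
SNHG5: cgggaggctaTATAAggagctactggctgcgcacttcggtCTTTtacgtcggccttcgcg
SNHG8: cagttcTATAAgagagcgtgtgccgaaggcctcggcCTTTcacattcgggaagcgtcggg
ZFAS1: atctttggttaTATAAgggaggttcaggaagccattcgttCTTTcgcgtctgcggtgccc
A match describes these letters and is not evidence of a site in use.

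ESM1 against Vector-1 sets the protein without an added signal against its own vector. Host genes differed little. The median log2 difference of FPKM + 1 was 0.08 over the 20 hosts and 0.01 over the 12296 genes tested, those with a mean of 1 FPKM or more. Hosts lay above 0 in 13 of 20 cases and below it in 7, against 52.8% and 46.9% of all genes. On this scale 0 were 1.5-fold higher or lower, against 1.19% and 0.325% of all genes. As plain ratios of FPKM, SNHG25 was 1.52 times as high (0.392 to 7.97) and SNHG21 at 0.654 (0.308 to 1.30), with intervals that held 1.

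Counting intervals lay above 1 for 5 hosts, against 17.9% of all genes, and below 1 for 0, against 16.9%. SNHG12 was 1.35 times as high in ESM1 as in Vector-1 (1.04 to 1.74) and SNHG19 1.34 times (1.06 to 1.68). SNHG7 was 1.22 times as high (1.10 to 1.36), SNHG3 1.22 times (1.04 to 1.44) and SNHG8 1.14 times (1.06 to 1.22). The most abundant host, GAS5, was 1.04 times as high (0.987 to 1.09) and SNHG1 0.989 times (0.925 to 1.06), so neither differed beyond counting error. The 1007 measured genes with an effective length up to 1000 bases, as that of 13 hosts, had a median of 0.07, and these hosts 0.11. The part of gene length in the hosts' differences was not tested. SNHG5 and SNHG6 changed sign when FPKM was rescaled to TPM.

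The comparison of ESM1-NLS with Vector-2 is about the form with the added NLS. Hosts lay on both sides of 0. The median was -0.08 over the hosts and 0.02 over the 13000 genes tested. Hosts lay below 0 in 12 of 20 cases and above it in 8, against 45.5% and 54.1% of all genes. SNHG25 alone was 1.5-fold lower, against 0.5% of all genes, on 4 reads in ESM1-NLS and 11 reads in Vector-2, or 0.462 of its Vector-2 level (0.107 to 1.56). No host was 1.5-fold higher, against 0.369% of all genes.

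Counting intervals lay below 1 for 6 hosts, against 16.8% of all genes, and above 1 for 3, against 22.5%. Among the most abundant hosts GAS5 in ESM1-NLS was at 0.850 of the level in Vector-2 (0.826 to 0.876), SNHG5 at 0.852 (0.815 to 0.890) and ZFAS1 at 0.855 (0.809 to 0.904). SNHG3 was at 0.791 (0.719 to 0.871), SNHG6 at 0.922 (0.857 to 0.991) and SNHG1 at 0.944 (0.909 to 0.981). The other way lay SNHG11 at 1.34 times (1.09 to 1.65), SNHG12 at 1.16 times (1.01 to 1.34) and SNHG7 at 1.07 times (1.01 to 1.15). Genes up to 1000 bases had a median of -0.04, and the 13 hosts of that length -0.11. On the TPM scale no host changed sign, and the counts of intervals on each side of 1 were again 6 and 3.

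ESM1-NES against Vector-2 gave higher FPKM for many hosts, a direction that depended on the scale. In FPKM the median was 0.12 over the hosts and -0.03 over the 12902 genes tested, and 13 of 20 hosts lay above 0 and 7 below it, against 45.8% and 53.9% of all genes. In TPM the median was 0.01 over the hosts and -0.14 over the same genes tested, and 10 of 20 hosts lay above 0. The host median thus lay above that of all genes on both scales. Centred on the median of all genes tested, the host median in FPKM was 0.15, and 16 of 20 hosts lay above 0. The change of scale moved the median of all genes by -0.11 in this comparison and by 0.13 in that of ESM1-NLS with ESM1-NES. No host was 1.5-fold higher or lower, against 0.388% and 2.16% of all genes.

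Counting intervals in FPKM lay above 1 for 9 hosts, against 24.1% of all genes, and below 1 for 0, against 32.7%. In TPM they lay above 1 for 4 hosts and below 1 for 4, and the shares of all genes in TPM were not computed. SNHG19 was 1.25 times as high in ESM1-NES as in Vector-2 in FPKM (1.052 to 1.48), SNHG10 1.24 times (1.02 to 1.52), SNHG16 1.24 times (1.16 to 1.32) and SNHG15 1.22 times (1.11 to 1.35). In TPM these 4 ratios were between 1.13 and 1.15. SNHG7 was 1.19 times as high in FPKM (1.12 to 1.27), SNHG5 1.13 times (1.09 to 1.18) and SNHG8 1.13 times (1.08 to 1.19). SNHG11 was 1.26 times as high in FPKM (1.01 to 1.56), on 170 reads in ESM1-NES and 179 reads in Vector-2. GAS5 was 1.07 times as high in FPKM (1.04 to 1.10) and 0.980 times in TPM, and SNHG1 and SNHG12 also changed sign. Genes up to 1000 bases had a median of 0.17 in FPKM, above the 0.12 of the 13 hosts of that length. Longer genes had -0.05, and the 7 longer hosts 0.12.

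ESM1-NLS against ESM1-NES sets the tagged forms against each other within 1 table. Both were compared with Vector-2, so their differences from it are not independent of each other. The median in FPKM was -0.19 over the hosts and 0.06 over the 12915 genes tested, and 16 of 20 hosts lay below 0 and 4 above it, against 37.4% and 62.2% of all genes. In TPM the median was -0.06 over the hosts and 0.19 over the same genes tested, and 12 of 20 hosts lay below 0. SNHG25 alone was 1.5-fold lower, against 0.356% of all genes, and no host was 1.5-fold higher, against 0.774%.

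Counting intervals in FPKM lay below 1 for 11 hosts, against 15.4% of all genes, and above 1 for 0, against 33% of all genes. In TPM they lay below 1 for 5 and above 1 for 1, again without computed shares of all genes. SNHG10 was at 0.741 of its ESM1-NES level in FPKM (0.599 to 0.917), SNHG19 at 0.741 (0.616 to 0.891) and SNHG5 at 0.750 (0.717 to 0.785). GAS5 was at 0.797 in FPKM (0.773 to 0.823) and at 0.875 in TPM. SNHG3 was at 0.801 in FPKM (0.724 to 0.888), SNHG8 at 0.842 (0.798 to 0.887), SNHG16 at 0.851 (0.794 to 0.912) and ZFAS1 at 0.861 (0.812 to 0.914). SNHG15 was at 0.892 (0.807 to 0.987), SNHG7 at 0.901 (0.842 to 0.965) and SNHG1 at 0.917 (0.880 to 0.955). SNHG1, SNHG6, SNHG17 and SNHG21 changed sign in TPM. Genes up to 1000 bases had a median of -0.22 in FPKM, close to the -0.21 of the 13 hosts of that length. Hosts of the longer class had -0.12, against 0.08 for all longer genes.

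**Figure D2:**
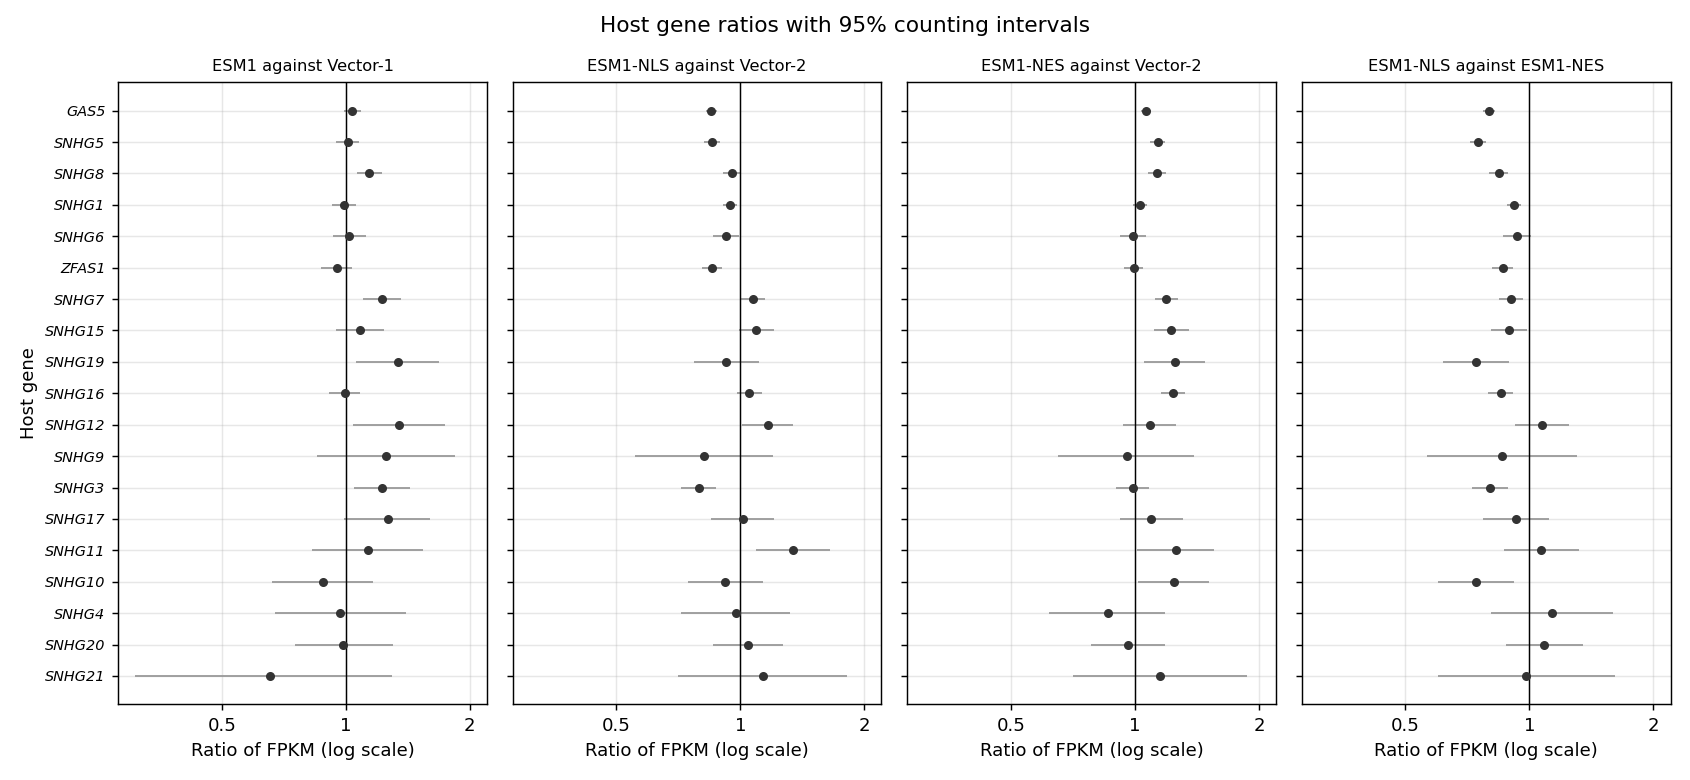
Ratio of FPKM (log scale) of 19 host genes in 4 comparisons, with bars for exact 95% counting intervals; SNHG25, with at most 11 reads, is not drawn. Intervals that leave out 1 lie above it for 5 hosts in ESM1 against Vector-1, below it for 6 and above it for 3 in ESM1-NLS against Vector-2, above it for 9 in ESM1-NES against Vector-2 and below it for 11 in ESM1-NLS against ESM1-NES; on the TPM scale the last 2 comparisons have 4 above and 4 below, and 1 above and 5 below.

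Among the 5 comparisons described, the host median lay farthest from 0 between the vectors, which belong to different tables that may not have been normalised alike. Vector-1 against Vector-2 gave a median log2 difference of -0.35 over the hosts and -0.10 over the 12685 genes tested. Hosts lay below 0 in 18 of 20 cases, against 59.3% of all genes, and 7 were 1.5-fold lower and 0 1.5-fold higher, against 14.3% and 4.91%. Past 2-fold, 3 were lower, against 3.67% of all genes, namely SNHG1, SNHG3 and SNHG12. Intervals lay below 1 for 12 hosts, against 43.3% of all genes, and above 1 for 0, against 28.1%. In TPM the median was -0.26 over the hosts and -0.002 over the same genes tested, and 16 of 20 hosts lay below 0.

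SNHG3 in Vector-1 was at 0.446 of the level in Vector-2 (0.390 to 0.506), SNHG12 at 0.447 (0.361 to 0.554), SNHG1 at 0.472 (0.447 to 0.497) and GAS5 at 0.513 (0.494 to 0.533). SNHG7 was at 0.560 (0.512 to 0.612), ZFAS1 at 0.576 (0.537 to 0.617) and SNHG5 at 0.658 (0.624 to 0.693). SNHG4 and SNHG9 lay the other way, with intervals that held 1. Both ESM1 and Vector-1 were below all 3 libraries of the other table in 16 of 20 hosts, and in 40.4% of 12766 genes with a mean over the 5 libraries of 1 FPKM or more. Set against Vector-2, the host median of ESM1 was -0.24, and set against Vector-1 those of ESM1-NLS and ESM1-NES were 0.37 and 0.59. Whether table, culture or sequencing run goes with this separation cannot be told apart. As a ratio of FPKM, no difference between a form of ESM1 and its own vector was as large as that of GAS5, SNHG1, SNHG3 or SNHG12 between the vectors, apart from that of SNHG25 on at most 11 reads.

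**Figure D3:**
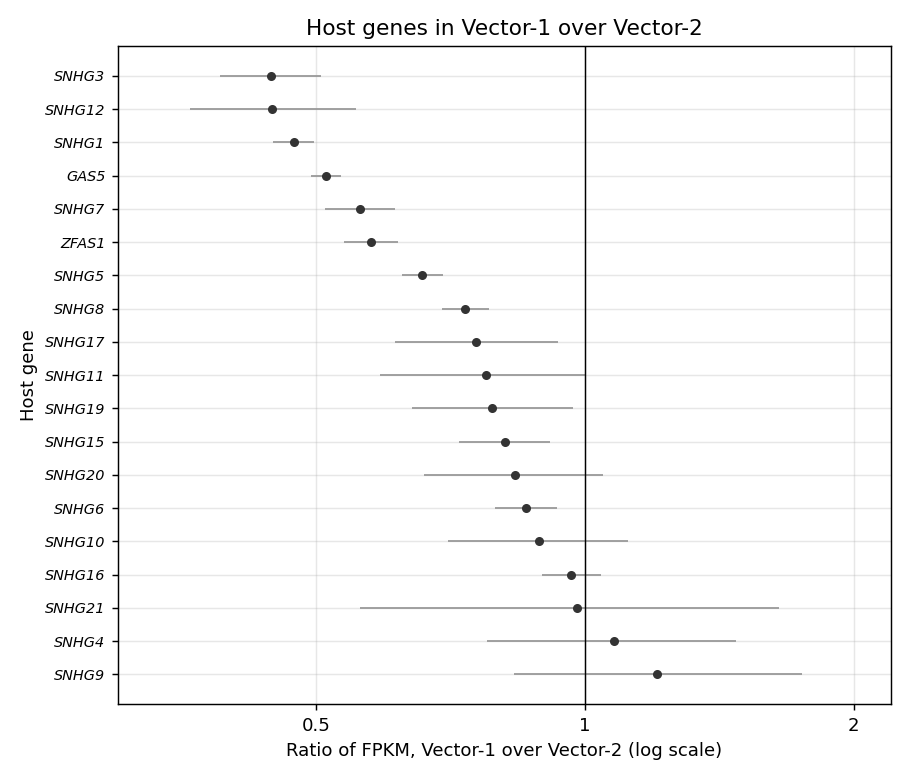
Ratio of FPKM of 19 host genes in Vector-1 over Vector-2 (log scale), ordered by size, with bars for exact 95% counting intervals; SNHG25 is not drawn. SNHG3, SNHG12 and SNHG1 lie below 0.5, and SNHG4 and SNHG9 lie above 1.

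The small RNAs drew few reads. Of 438, 94 were above 0 in at least 1 library, and 344 were listed at 0 in all 5. By library, 35 were above 0 in ESM1 and 41 in Vector-1, and 45, 37 and 51 in ESM1-NLS, ESM1-NES and Vector-2. In all 5 libraries 11 were above 0, and 42 were so in exactly 1 library. Reads were known for 93 of the 94, all but RNU86, and 87 of these had at most 5 reads in every library.

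Summed over the small RNAs with known reads, which leaves out RNU86 in ESM1, 71 reads were found in ESM1 and 73 in Vector-1, and 94 in ESM1-NLS and 90 in ESM1-NES, against 155 in Vector-2. In RPM, reads for every 1000000 reads of the library, that is 5.16 in ESM1 and 4.81 in Vector-1, and 4.71 in ESM1-NLS and 4.88 in ESM1-NES, against 6.36 in Vector-2. For a small RNA listed at 0, the count to be expected from its level could still be as high as 3 reads. That is 0.218, 0.198, 0.1502, 0.163 and 0.123 RPM in ESM1, Vector-1, ESM1-NLS, ESM1-NES and Vector-2. Single reads were listed, so 3 reads is not a limit of detection.

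In ESM1 the summed small RNAs were 1.07 times as high as in Vector-1 (0.763 to 1.51). In ESM1-NLS they were at 0.740 of the Vector-2 level (0.565 to 0.960), and in ESM1-NES at 0.767 of it (0.584 to 0.999). ESM1-NLS was at 0.965 of ESM1-NES (0.715 to 1.30). The intervals of the tagged forms against Vector-2 thus lay below 1, that of ESM1-NES barely so. Without SCARNA12, the small RNA with the most reads, ESM1-NLS was at 0.693 (0.504 to 0.941), but ESM1-NES was at 0.806 with an interval that held 1 (0.592 to 1.09). By class, every interval held 1: against Vector-2, SNORD with RNU86 stood at 0.661 in ESM1-NLS (0.357 to 1.19) and 0.678 in ESM1-NES (0.362 to 1.23), SNORA at 0.713 (0.473 to 1.06) and 0.829 (0.555 to 1.23), and SCARNA at 0.833 (0.519 to 1.31) and 0.743 (0.448 to 1.20).

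**Figure D4:**
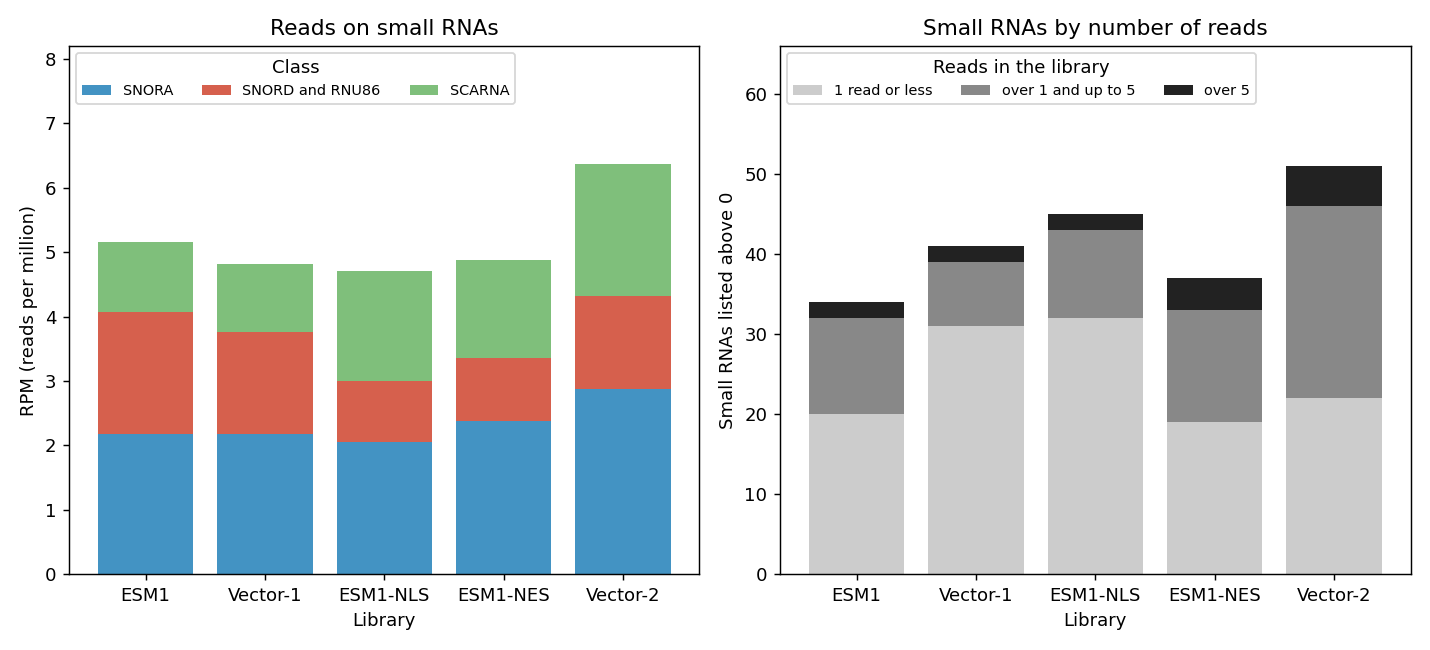
Left, RPM on small RNAs in each library, stacked by class; right, number of small RNAs above 0 with known reads in each library, stacked by how many reads each had. The total is highest in Vector-2 at 6.36 RPM and between 4.71 and 5.16 RPM in the other 4 libraries, and at most 5 small RNAs of a library have over 5 reads.

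SCARNA12 had the most reads, with 9 in ESM1 and 8 in Vector-1, and 27 in ESM1-NLS and 18 in ESM1-NES, against 37 in Vector-2. Its surrounding gene PHB2, which encodes a prohibitin of mitochondria, stood at 312 FPKM in ESM1, against 287 FPKM in Vector-1, and at 397, 467 and 399 FPKM in ESM1-NLS, ESM1-NES and Vector-2. SNORD17 had 8 reads in ESM1, 14 in Vector-1, 5 in ESM1-NLS and 6 in ESM1-NES, against 6 in Vector-2. SNX5, a sorting nexin gene that encloses SNORD17, stood at 48.6 FPKM in Vector-1, against between 43.4 and 46.5 FPKM elsewhere. OVOL2, a zinc finger gene whose span also holds SNORD17, stood at 4.20 FPKM in ESM1, 4.39 FPKM in Vector-1 and between 8.09 and 9.32 FPKM in the other 3 libraries. SNORD22, which is needed for the maturation of 18S ribosomal RNA in Xenopus oocytes, had 4 reads in ESM1, 4 in Vector-1, 4 in ESM1-NLS and 2 in ESM1-NES, against 12 in Vector-2. Its host SNHG1 stood at similar FPKM in ESM1-NLS, ESM1-NES and Vector-2. SNORD22 reached the minimum of reads for a named small RNA in Vector-2 alone, and SNORD17 did so in Vector-1 alone. Each was thus picked through the library with its highest count. These counts therefore cannot show a difference from the other libraries, nor one between SNORD22 and SNHG1.

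Several small RNAs share a surrounding gene. TAF1D, which encodes a subunit of the RNA polymerase I factor SL1, encloses 5 that were above 0 (SNORA8, SNORA18, SNORA25, SNORA32 and SNORA40), with 1 read in all in ESM1, 3 in Vector-1, 10 in ESM1-NLS and 5 in ESM1-NES, against 10 in Vector-2. The translation initiation gene EIF4A2 encloses SNORA4, SNORA63 and SNORA81, with 5, 6, 4, 5 and 11 reads in the same libraries. SNORA50C and SNORD104, both inside SNHG25, together had 7 reads in ESM1 and 0 in Vector-1, and 2, 7 and 7 reads in ESM1-NLS, ESM1-NES and Vector-2. All of these but SNORD104 lie within an annotated exon of the surrounding gene, where reads of the gene's own RNA and of the small RNA cannot be told apart. Of the 82 placed small RNAs above 0, 33 lie within such an exon, and they drew 46.5% of small RNA reads in ESM1 and 30.1% in Vector-1, and 33.0% in ESM1-NLS and 40% in ESM1-NES, against 36.8% in Vector-2. The 11 small RNAs placed inside GAS5 were listed at 0 in every library, although GAS5 was the most abundant host; their strand was not checked. Of the 53 small RNAs placed inside a host of the set, 17 were above 0 in at least 1 library.

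Short length makes large FPKM from few reads. In ESM1, 1 read was worth between 0.25 and 2.48 FPKM, and of 21 small RNAs at 1 FPKM or more there, 18 had at most 5 reads. On the log2 scale of FPKM + 1, 6 of the 16 small RNAs with a mean of 1 FPKM or more in ESM1 and Vector-1 were 2-fold higher in ESM1 and 0 were 2-fold lower, against 0.268% and 0.0163% of all genes. SNORD104 stood at 4.15 FPKM in ESM1 on 2 reads and SNORD68 at 2.48 FPKM on 1 read, and both were listed at 0 in Vector-1. SNORA50C stood at 4.66 FPKM in ESM1 on 5 reads and was listed at 0 in Vector-1, and SNORA70, inside RPL10, at 2.74 FPKM on 3 reads in ESM1 and 0.84 FPKM on 1 read in Vector-1. RNU86, a synonym of SNORD139 in RefSeq, was listed at 4.04 FPKM in ESM1 and at 0 in the other 4 libraries, and its reads were not estimated. An RNA listed at 0 in Vector-1 passes the limit of 1 FPKM only where it is high in ESM1, so these counts do not stand for the 438 small RNAs. These 6 RNAs, with at most 5 reads where reads were known, were 6 of the 33 genes 2-fold higher in ESM1.

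In ESM1-NLS against Vector-2, 1 of 13 small RNAs was 2-fold higher and 2 were 2-fold lower, against 0.0769% and 0.0462% of all genes. The one higher, SNORA33, was listed at 0 in Vector-2. In ESM1-NES against Vector-2, 0 of 14 were 2-fold higher and 3 were 2-fold lower, against 0.0698% and 0.155%. Of the 3 lower, SNORA4 and SNORA109 were listed at 0 in ESM1-NES. SNORD22, lower in both comparisons, was the only one with 10 or more reads in a library. That library was Vector-2, the control in both, so the comparisons share its high value and are not independent. In ESM1-NLS against ESM1-NES, 0 of 12 were 2-fold higher and 2 were 2-fold lower, SNORA50C and SNORA64, against 0.0542% and 0.0852% of all genes, and SNORA64 was listed at 0 in ESM1-NLS. As in ESM1, small RNAs at 0 in 1 library pass the limit through the other, so nothing is read from these counts against the share of all genes.

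**Figure D5:**
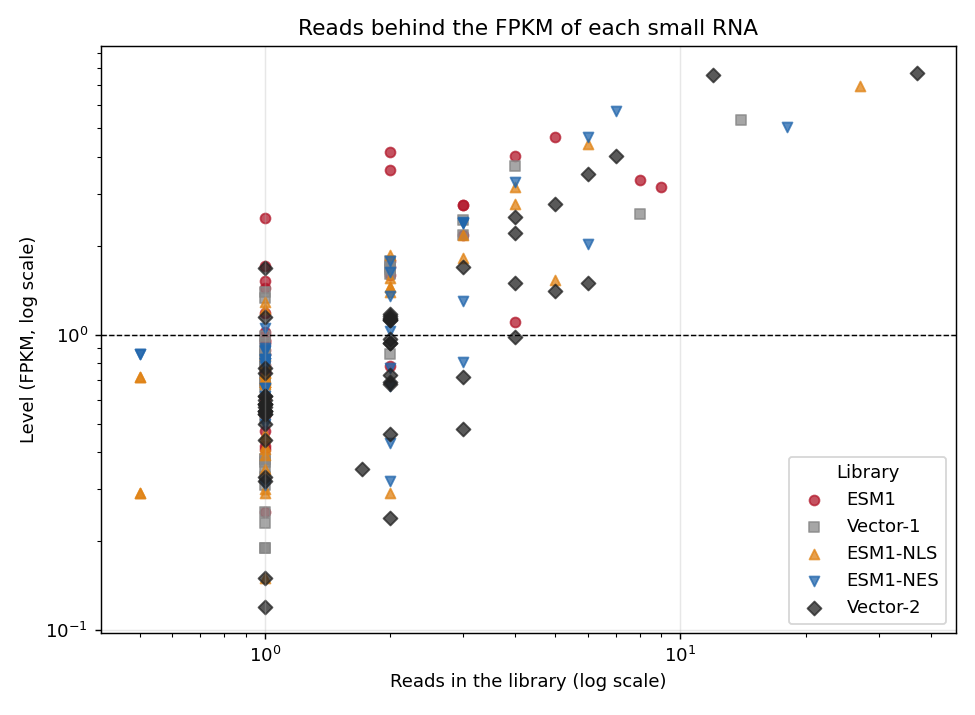
Level in FPKM against reads (both log scales) of each small RNA above 0, 1 point per small RNA and library, with a dashed line at 1 FPKM. In ESM1 single reads reach 2.48 FPKM and pairs of reads 4.15 FPKM, and 12 reads or more occur in SCARNA12, SNORD17 and SNORD22 alone.

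Lists of genes that act in the same pathway are set beside all genes. Medians of all genes in FPKM were 0.01 in ESM1 against Vector-1, 0.02 in ESM1-NLS against Vector-2 and -0.03 in ESM1-NES against Vector-2. In TPM these medians were -0.01, 0.03 and -0.14. In the same order, 1.19%, 0.369% and 0.388% of all genes were 1.5-fold higher and 0.325%, 0.5% and 2.16% were 1.5-fold lower, so that a count of 0 in lists this short does not set them apart. Of the 8 core proteins of box C/D and H/ACA particles, 7 were measured, with median log2 differences in FPKM of -0.10, -0.04 and 0.23 in these comparisons, and of -0.13, -0.03 and 0.11 in TPM. Of these 7, 0 were 1.5-fold higher or lower in the 3 comparisons. In ESM1 the counting intervals of 3 lay below 1, against 16.9% of all genes, and that of 1 above it, against 17.9%. In ESM1-NLS they lay below 1 for 3, against 16.8%, and above it for 1, against 22.5%. For ESM1-NES the counts in FPKM were 0 below, against 32.7%, and 4 above, against 24.1%. NOP58, a box C/D protein, had a ratio of ESM1 to Vector-1 of 0.849 (0.809 to 0.891). That of DKC1, the dyskerin pseudouridine synthase, was 0.872 (0.825 to 0.921), and that of NOP56, a box C/D protein, 0.883 (0.843 to 0.925). As ratios of Vector-1 to Vector-2, NOP58 stood at 1.58, DKC1 at 1.25 and NOP56 at 1.21. Between the vectors, intervals of the 7 lay above 1 for 5, against 28.1% of all genes, and below 1 for 2, against 43.3%. NHP2, an H/ACA protein, was 1.21 times as high in ESM1, at 168 FPKM, as in Vector-1, at 139 FPKM (1.13 to 1.29), and FBL, the fibrillarin methylase, 1.21 times as high in ESM1-NES, at 250.1 FPKM, as in Vector-2, at 207 FPKM (1.16 to 1.25). The 14 assembly and trafficking factors had medians in FPKM of 0.01, 0.04 and -0.04, and in TPM of -0.01, 0.06 and -0.16. The 16 translation genes with an oligopyrimidine start had 0.04, 0.04 and 0.07 in FPKM, and 0.01, 0.05 and -0.06 in TPM. In either list 0 genes were 1.5-fold higher or lower.

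Of 10 factors of nonsense-mediated decay, SMG1 alone was 1.5-fold lower in ESM1-NLS and in ESM1-NES, and 0 were 1.5-fold higher, against 0.5% and 2.16% of all genes lower and 0.369% and 0.388% higher. SMG1, the kinase that phosphorylates UPF1, stood at 7.90 FPKM in ESM1-NLS, 6.78 FPKM in ESM1-NES and 12.5 FPKM in Vector-2, and at 9.53 FPKM in ESM1, against 12.1 FPKM in Vector-1. SMG1 was thus lower than the vector in all 3 forms, with ratios of 0.630 (0.601 to 0.662) for ESM1-NLS, 0.541 (0.513 to 0.570) for ESM1-NES and 0.788 (0.745 to 0.834) for ESM1. SMG1 has near-identical copies in the genome, so its reads are uncertain. The 10 factors had medians in FPKM of -0.06 in ESM1 against Vector-1, 0.02 in ESM1-NLS against Vector-2 and -0.11 in ESM1-NES against Vector-2, with the same signs in TPM. In ESM1-NLS against ESM1-NES their median was 0.14 in FPKM and 0.28 in TPM, against 0.06 and 0.19 over all genes. In FPKM 9 of 10 lay above 0, against 62.2% of all genes. The core proteins had -0.10 in FPKM and 0.04 in TPM in that comparison.

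Protein-coding genes that enclose a small RNA of the set on the same strand numbered 132. They had medians of -0.04 over 126 measured in ESM1 against Vector-1, -0.03 over 126 in ESM1-NLS against Vector-2 and -0.03 over 127 in ESM1-NES against Vector-2. RPL21, a ribosomal protein gene with many pseudogene copies, was 1.51 times as high in ESM1, at 267 FPKM, as in Vector-1, at 176 FPKM (1.41 to 1.63), and stood at 1069, 1671 and 1137 FPKM in ESM1-NLS, ESM1-NES and Vector-2. RPL21 was the 1 gene of this list past 1.5-fold in ESM1, or 0.794% of it, against 1.19% of all genes higher. RC3H2, which encodes an RNA-binding ubiquitin ligase, was at 8.16 FPKM in ESM1-NES, 0.490 of the 16.6 FPKM in Vector-2 (0.445 to 0.540), and was 1 of 4 genes of this list 1.5-fold lower in ESM1-NES, or 3.15% of it, against 2.16% of all genes. The others were VPS13D at 0.567 of its Vector-2 level (0.532 to 0.604), ZBED3 at 0.571 (0.407 to 0.791) and USP34 at 0.623 (0.591 to 0.657). ATP6V1G2-DDX39B, a read-through transcript that overlaps DDX39B and so has uncertain reads, was the 1 gene 1.5-fold higher in ESM1-NES, at 2.54 FPKM, against 0.67 FPKM in Vector-2. That is 0.787% of the list, against 0.388% of all genes. In ESM1-NLS 0 genes of this list were 1.5-fold higher or lower, against 0.369% and 0.5% of all genes.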

How the data were processed

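RNA from 5 libraries of 22Rv1 cells, 1 per group, was sequenced. The submitters' processing notes name RSEM, Bowtie2 and Trimmomatic and the hg19 build, with no versions. The deposited table of ESM1 and Vector-1 names no unit, and its values were taken as FPKM. The other deposited table holds FPKM, TPM and expected counts, per the file headers, and the authors' fold change, a ratio, and a score named PPEE, which were not used. The members and lists were chosen with earlier results of these data known.

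For each comparison, log2(FPKM + 1) of the second library was subtracted from that of the first over genes with a mean of the 2 libraries of 1 FPKM or more, which understates the change of low genes. Ratios are of FPKM, with intervals on reads computed from rounded expected counts. Reads of ESM1 and Vector-1 were estimated from the FPKM step of 1 read, with a search for the depth that brought values nearest to whole reads: 91.2% of 740 values in ESM1 and 86.7% of 638 in Vector-1 lay within 0.15 reads. For short genes the search was run apart and gave 14788000 in ESM1 and 16264000 in Vector-1. Small RNA reads rest on these, while their RPM divide by the depths of the report; with the depths from short genes the sums would be 4.80 and 4.49 RPM, at a ratio of 1.07. Of 75 small RNA values in these libraries, 70 came within 0.15 reads of a whole number, a share that the search itself raises.

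Every host with a mean over the 5 libraries of 1 FPKM or more was named, small RNAs with 10 or more reads in a library, and up to 6 members of each list by their difference. SNORA50C, SNORD104, SNORD68, SNORA70, RNU86, TAF1D and EIF4A2 were chosen after their values were seen. Of the small RNAs, 377 had a place in both RefSeq (GRCh38.p14) and GENCODE release 29. Alternatives were the pseudocount, the filter, TPM, centring, the control library, a minimum of 100 reads, and subsets of small RNAs. Calculations used Python 3.11.15, numpy 2.4.6, pandas 2.3.3 and scipy 1.17.1, and the scripts were tested on simulated data. Some items that the counts cover are not reported here.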

Additional observations from a re-analysis of the deposited data

How the results depend on the processing

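Alternatives to the 4 host medians were set against the counting error of a median, the median half-width of the hosts' intervals scaled to their number, and those to the 4 small RNA ratios against their intervals. Of 51 alternatives, 38 were counted as the same. A host median had to keep its sign and stay within that error. The error was 0.079 in ESM1 against Vector-1, about as large as the median of 0.082, so the check is weak there. It was between 0.049 and 0.051 in the other comparisons. In ESM1-NLS against Vector-2, a median of -0.028 without the filter on low values counted as the same as -0.075. Scaling to the number of hosts treats them as independent, which was not tested. Where a ratio's interval left out 1, the alternative's interval had to lie on the same side. For summed FPKM, which has no interval, the direction had to hold. Where a ratio's interval held 1, the alternative's value had only to lie within that interval, in either direction. For the summed small RNAs the intervals are wide and the subsets share reads, so this is a weak check. TPM moved the host median of ESM1-NES against Vector-2 to 0.0053 and that of ESM1-NLS against ESM1-NES to -0.055. The medians of all genes in TPM were -0.14 and 0.19 in these comparisons. Centring on all genes moved the host median of ESM1-NLS against ESM1-NES to -0.25. With Vector-2, of the other table, as control, the host median of ESM1 was -0.24. With Vector-1 as control, chosen after the data were seen, it was 0.37 in ESM1-NLS and 0.59 in ESM1-NES. These cross tables that may not have been normalised alike. Against Vector-2, the interval of the small RNA ratio came to hold 1 within each class: for ESM1-NLS at 0.661 in SNORD with RNU86, 0.713 in SNORA and 0.833 in SCARNA, and for ESM1-NES at 0.678, 0.829 and 0.743, each on fewer reads. It also did so for ESM1-NES without SCARNA12, at 0.806. Hosts with at least 100 reads in each library, also chosen after the data were seen, had medians of 0.08, -0.08, 0.15 and -0.19 in the order of the report. From summed FPKM the small RNA ratio of ESM1 to Vector-1 was 1.37, against 1.07 from reads. Apart from these reads, the cause of the changes was not tested. Depth limits single small RNAs, most of which have at most 5 reads. No paired analysis was possible because each group holds 1 library.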
